A study of Homo sapiens with 6 samples.

Results

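The genes described here encode the machinery that brings new proteins into the endoplasmic reticulum (ER) and attaches N-linked glycans to them. The 31 genes were chosen by their known function, by a rule that uses no measured value although earlier results of these data were known, and all 31 were found among the 32364 genes of the deposited table. They comprise 6 protein genes of the signal recognition particle (SRP), 2 of the SRP receptor, 4 of the SEC61 channel, 3 of its partners, 5 of signal peptidase, 4 of the translocon-associated protein (TRAP) complex and 7 of oligosaccharyltransferase (OST). RNA was sequenced from Kasumi-1 cells, an established human acute myeloid leukemia line that carries a translocation fusing RUNX1 with RUNX1T1. The 3 I13 libraries came from cells incubated for 48 h with 0.5 µM I13, a histone deacetylase inhibitor known by its code name, and the 3 control libraries from cells given the matching amount of its solvent, DMSO, for the same time. The labels do not say whether the 3 libraries of a group came from separate cultures, and the study, which describes its sequencing figures as representative of independent experiments, does not tie single libraries to them. The p-values below therefore measure the spread between these libraries, which may be technical. The comparison asks how the RNA of these genes differed between I13-treated and control cells.

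Proteins that are secreted, stored in granules or placed in the plasma membrane begin with a signal sequence, which SRP recognises as it leaves the ribosome. SRP docks on its receptor, the ribosome is handed to the SEC61 channel, and the chain enters the ER, where signal peptidase removes the signal sequence and OST transfers a preassembled glycan to asparagine residues. Myeloblasts use this route for myeloperoxidase and other granule enzymes, which are glycosylated proteins.

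The control libraries held between 16566742 and 17221345 fragments and the I13 libraries between 15281052 and 16682550. Control replicate 3 and I13 replicate 2 stood apart from the other 4 libraries on the first principal component of the 4133 genes whose mean reached 10 FPKM (fragments per kilobase of exon, scaled to library depth), with scores of 0.58 and 0.57 against -0.32 to -0.23, and this component held 43.3% of the variance. The main counts, and the differences of the members on which they bear most, are therefore also given without them. All 13 markers of Kasumi-1 cells and myeloblasts were in the table, and their summed level was 18211 to 19184 FPKM in control and 16176 to 18834 FPKM in I13 libraries, most of it MPO. Within this list ANPEP, a myeloid surface peptidase, was at 24 ± 2.06 and 30.6 ± 1.47 FPKM (log2 fold change 0.35, limma p 0.00184), CD33 at 11.5 ± 0.613 and 13.2 ± 0.483 FPKM (0.20, limma p 0.0166) and PAX5 at 0.561 ± 0.163 and 0.949 ± 0.088 FPKM (0.69, limma p 0.0204), none past the adjustment (0.54, 0.89 and 0.89). Summed T cell markers (5 genes, CD3G and TRAC at 0) were at 0.333 to 0.438 FPKM in control and 0.179 to 0.207 FPKM in I13 libraries, and erythroid markers (4 of 5 genes in the table, HBA2 at 0) were at most 0.201 FPKM. Plasma and B cell markers (5 of 6 genes in the table, JCHAIN and TNFRSF17 at 0) summed to 14.9 to 16.8 FPKM in control and 16.5 to 18 FPKM in I13 libraries, nearly all of it SDC1, and epithelial and stromal markers (5 of 7, COL1A1 and COL1A2 at 0) to 20.9 to 26.7 and 22.3 to 26.2 FPKM, nearly all of it EPCAM. The part of these markers in the results was not tested.

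The 31 genes were expressed in every library, and their RNA differed little between I13 and control cells. Their summed level was 1699, 1687 and 1705 FPKM in the control libraries and 1745, 1716 and 1701 FPKM in the I13 libraries, so the groups overlapped. The one gene with an unadjusted limma p under 0.05 was SSR4, the delta subunit of the TRAP complex, which was 12% higher in I13 cells. The next largest differences with groups that did not overlap were those of SEC11C and SEC11A, the catalytic subunits of signal peptidase. No member was called at an adjusted p under 0.05 with a log2 fold change of at least 0.58 in size, and the same was true of all genes tested (0 of 18726, 0%). At that adjusted p alone limma called 0 of the 18726 genes, and 963 of them (5.14%) had an unadjusted p under 0.05. Voom on recovered fragments called 5 of 13810 genes at the adjusted p, none of them a member, and 739 (5.35%) at the unadjusted p, with 1 member, SSR4, among them. The study, which does not name its test, reports genes up- and downregulated by I13 at its threshold, among them CIITA and HLA-DRA. Why limma called none here (smallest adjusted p 0.275) was not tested. The study also measured CIITA, HLA-B and HLA-DRA by real-time PCR and Western blotting after a longer treatment. It reports that I13 altered their mRNA and protein.

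Read against all genes, the count at the unadjusted p was near the background. It was 1 of 31 members (3.23%) in either direction, against 5.14% of all genes tested. The 1 member was higher in I13 cells, where the share of all genes was 2.55%, and 0 members were lower, where it was 2.59%. Without control replicate 3 and I13 replicate 2 the higher members were 2, SSR4 and STT3B (6.45% against 4.28% of all genes, and against 8.04% in either direction), and the lower members 0 (against 3.76%). The 3 I13 libraries lay wholly above the 3 control libraries for 4 members (SEC61B, SEC11A, SEC11C and SSR4), which is 12.9% of the members against 4.88% of all genes. They lay wholly below the control libraries for 0 members, against 4.64% of all genes. Without control replicate 3 and I13 replicate 2, where 2 libraries faced 2, the I13 libraries lay wholly above for 10 members (32.3% against 21.1% of all genes) and wholly below for 1, SRP72 (3.23% against 16.9%). The log2 fold change was above 0 for 23 members (74.2%), against 51.8% of all genes, and its median was 0.042 over the members and 0.0058 over all genes. In the 4 libraries it was above 0 for 23 members as well, against 54.2% of all genes, with a median of 0.047. Fold changes throughout are differences of log2(FPKM + 0.1) between the mean of the I13 and the mean of the control libraries, which understates the change of genes with low values.

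The intervals of these differences were narrow. For 30 of 31 members (96.8%) the 95% interval of the log2 fold change lay within 0.58 either way, which held for 54.1% of all genes tested and for 85.7% of those whose mean reached 1 FPKM. For 22 members (71.0%) it lay within a 1.2-fold change either way, against 23.5% of all genes. The members were among the better measured genes, with mean levels from 1.58 to 289.5 FPKM. The cells were measured in bulk, so a smaller share of cells expressing a gene and less RNA of it per cell cannot be told apart. FPKM is a share of each library, so a change common to all transcripts would not be seen.

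**Figure D1:**
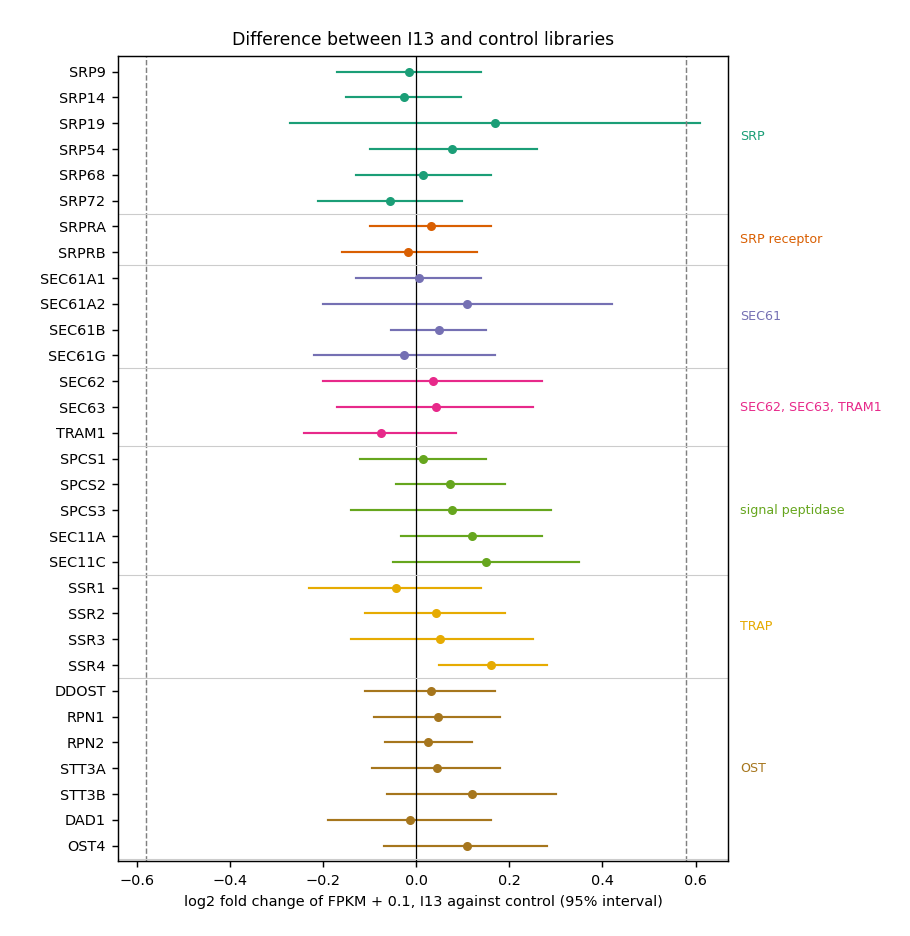
Log2 fold change of FPKM + 0.1 between I13 and control libraries for the 31 genes (points, coloured by complex) with the 95% interval of the limma fit (lines), 3 libraries a group. The dashed lines stand at 0.58 either way, SRP19 alone reaches past one of them, and the interval of SSR4 alone lies wholly above 0.

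The levels of the machinery spanned 183-fold from the highest to the lowest gene, all given per kilobase of exon. DDOST, a non-catalytic OST subunit, was highest, at 281, 275 and 302 FPKM in control and 294, 307 and 277 FPKM in I13 libraries. SRP72 followed with a mean over the 6 libraries of 213 FPKM, then RPN2 with 146, SRP9 with 116, DAD1 with 113 and RPN1 with 108 FPKM. SRP9, DAD1 and RPN1 could not be ordered, since their libraries overlapped. At the low end stood SEC11C with 3.67, SEC61A2 with 2.57 and SRP19 with 1.58 FPKM. The order depends on the length used. For 28 members the FPKM values imply a length that pools all annotated exons of the gene. With the length of the longest coding transcript instead, SSR2 moved from place 16 to place 4, SSR4 from 10 to 6 and RPN1 from 6 to 3, while DDOST and SRP72 stayed in the first places. This other length was chosen after the values were seen.

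**Figure D2:**
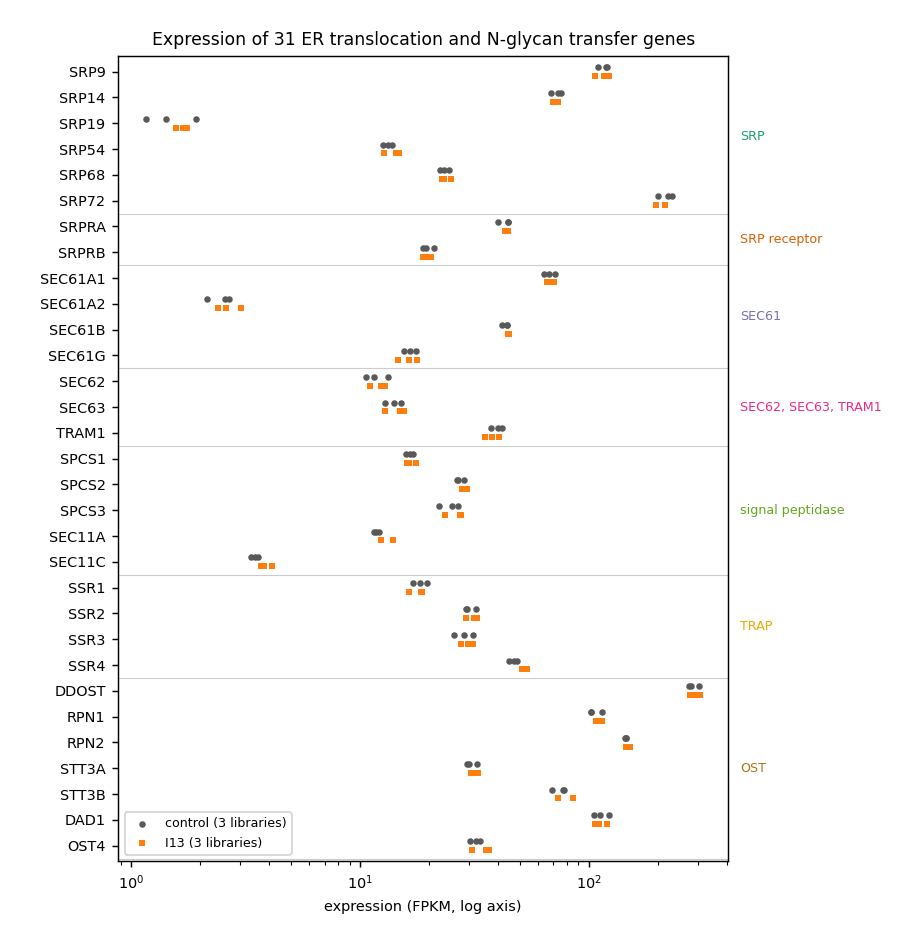
Expression in FPKM (log axis) of the 31 genes in each library, control as grey circles and I13 as orange squares, ordered by complex. DDOST and SRP72 lie furthest to the right and SRP19, SEC61A2 and SEC11C furthest to the left, and the orange points lie wholly to the right of the grey ones for SEC61B, SEC11A, SEC11C and SSR4.

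The SRP proteins showed no common direction. Of the 6 genes, 3 had a log2 fold change above 0 and 3 below, with a median of -0.00038, and 0 passed the unadjusted test. SRP54, the GTPase that binds the signal sequence, was at 13.2, 13.8 and 12.6 FPKM in control and 14.4, 12.7 and 14.8 FPKM in I13 libraries. Its groups overlapped, with a log2 fold change of 0.078 (SE 0.076, 95% interval -0.10 to 0.26). SRP68 and SRP72 form the scaffold pair of the particle, and their RNA levels were apart, at 23.4 ± 1.18 (SD, n = 3) and 217 ± 15 FPKM in control cells. The size of this gap depends on the length used, and per kilobase of the longest coding transcript the levels were 67.5 ± 3.4 and 247 ± 17. SRP72 (chromosome 4, 56467336 to 56503681 of GRCh38, plus strand) read 229.9, 222 and 201 FPKM in control and 215, 196 and 215 FPKM in I13 libraries. Its groups overlapped and its log2 fold change was -0.057 (SE 0.066), while that of SRP68 was 0.014 (SE 0.06). The genes for the Alu domain pair SRP9 and SRP14, which pauses the ribosome, were at 116 ± 5.82 and 72.4 ± 3.55 FPKM in control and at 115 ± 8.03 and 71.1 ± 2.04 FPKM in I13 cells.

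SRP19, which helps assemble the particle on its RNA, was the one member whose interval left room for a larger difference. It read 1.42, 1.91 and 1.16 FPKM in control and 1.68, 1.57 and 1.75 FPKM in I13 libraries, from 69 to 118 fragments a library. The highest and the lowest value were both from control libraries. Its log2 fold change was 0.17 (SE 0.19), with an interval of -0.27 to 0.61. The value rested on single control libraries: it was 0.010 without control replicate 3, 0.35 without control replicate 2 (limma p 0.0725) and 0.050 in the 4 libraries that did not stand apart. GENCODE 29 places other genes on the same strand over 18.2% of its 10517 exon bases, and fragments there could be counted to another gene. The recovered fragments of SRP19 imply a shorter length, 3598 bases, so this share need not hold for the bases that were counted.

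In the SRP receptor and the SEC61 channel no gene passed the unadjusted test, and the fold changes lay between -0.026 and 0.11 on the log2 scale. Both receptor genes overlapped between the groups. SRPRA, the SRP-binding subunit, was at 42.9 ± 2.55 FPKM in control and 43.8 ± 0.816 FPKM in I13 cells, and SRPRB, its membrane anchor, at 19.8 ± 1.09 and 19.5 ± 0.795 FPKM. SEC61A1, the pore-forming channel subunit, was at 67.2 ± 3.96 and 67.5 ± 2.6 FPKM, a log2 fold change of 0.0060 with an interval of -0.13 to 0.14. SEC61G, the small gamma subunit, was at 16.5 ± 0.982 and 16.3 ± 1.56 FPKM. SEC61B, the small beta subunit (chromosome 9, 99222064 to 99230615), read 41.6, 43.8 and 44.1 FPKM in control and 44.3, 44.7 and 44.9 FPKM in I13 libraries. Its groups did not overlap, but the highest control and the lowest I13 library nearly met, and the log2 fold change was 0.048 (SE 0.043, limma p 0.304), or 0.062 (limma p 0.196) in the 4 libraries. Across the 4 channel genes the median log2 fold change was 0.027, with 3 above 0.

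The channel partners differed by less than their spread. SEC62 and SEC63, which serve short and post-translationally imported chains, were at 11.8 ± 1.39 and 14 ± 1.09 FPKM in control and at 12 ± 0.957 and 14.5 ± 1.35 FPKM in I13 cells. TRAM1, a membrane protein beside the channel, had the lowest log2 fold change of all members, -0.076 (SE 0.069, 95% interval -0.24 to 0.086, limma p 0.304). It read 39.9, 41.9 and 37.5 FPKM in control and 40.5, 35 and 37.7 FPKM in I13 libraries, which overlapped. The median over the 3 genes was 0.036, and it was -0.039 without control replicate 3.

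Signal peptidase was the complex in which all genes had a log2 fold change above 0, with a median of 0.076 (0.11 in the 4 libraries), although 0 of the 5 passed the unadjusted test, and SPCS1 and SPCS3 reached -0.023 and -0.0012 when single libraries were left out. SEC11A (chromosome 15, 84669538 to 84716716, minus strand) read 11.5, 12.1 and 11.8 FPKM in control and 13.9, 12.3 and 12.4 FPKM in I13 libraries. All I13 libraries lay above the controls, with I13 replicate 1 highest. The log2 fold change was 0.12 (SE 0.065, 95% interval -0.033 to 0.27, limma p 0.107). With single libraries left out it ran from 0.065 to 0.15. SEC11C (chromosome 18, 59139477 to 59158836, plus strand), the alternative catalytic subunit, read 3.59, 3.35 and 3.49 FPKM in control and 3.79, 4.11 and 3.7 FPKM in I13 libraries, from 255 to 309 fragments. Here I13 replicate 2 was highest, and the log2 fold change was 0.15 (SE 0.084, 95% interval -0.05 to 0.35, limma p 0.121). Without control replicate 3 and I13 replicate 2 the values were 0.16 for SEC11A and 0.11 for SEC11C, with p of 0.0925 and 0.266 by limma. The accessory subunits overlapped: SPCS1 was at 16.5 ± 0.584 and 16.7 ± 0.775 FPKM, SPCS2 at 27.2 ± 1.03 and 28.6 ± 0.75 FPKM, and SPCS3, which contacts the substrate, at 24.8 ± 2.4 and 26.1 ± 2.26 FPKM in control and I13 cells. Genes on the opposite strand (GLT8D1 and NEK4) cover 58.1% of the exon bases of SPCS1, and although the kit keeps strand, the sources used here do not give the strand setting of the counting. A SPCS2 pseudogene in the table reached a mean of 4.36 FPKM, so some fragments may be divided between it and SPCS2.

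The TRAP complex assists the entry of chains with weak signal sequences and contacts OST. Its delta subunit gene SSR4 (chromosome X, 153793516 to 153798505, plus strand) read 47, 44.6 and 48.4 FPKM in control and 52.6, 53.4 and 50.9 FPKM in I13 libraries, from 3516 to 4086 fragments. IDH3G on the opposite strand covers 6.1% of its exon bases. All 3 I13 libraries lay above all 3 controls, with 46.7 ± 1.89 (SD, n = 3) against 52.3 ± 1.26 FPKM. The log2 fold change was 0.16 (SE 0.048, 95% interval 0.050 to 0.28), a fold of 1.12, with a limma p of 0.0112 that the adjustment over all genes took to 0.875. Voom gave 0.16 with a p of 0.0175 and an adjusted p of 0.755. Within the 4 libraries that did not stand apart the value was 0.18 (limma p 0.0132), and between the pair that did it was 0.14. The p depended on the fit: it was 0.055 after median scaling and 0.06 without a variance trend, and it was 0.0503 without control replicate 2, the lowest library, where the log2 fold change was 0.13.

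The groups overlapped in the other TRAP subunits. SSR1, the alpha subunit, was at 18.4 ± 1.29 FPKM in control and 17.8 ± 1.35 FPKM in I13 cells, SSR2, the beta subunit, at 30.1 ± 1.62 and 31.1 ± 1.87 FPKM, and SSR3, the gamma subunit, at 28.4 ± 2.77 and 29.4 ± 1.88 FPKM. Their log2 fold changes were -0.043, 0.043 and 0.052, with SE of 0.078, 0.064 and 0.083. Whether the difference of SSR4 exceeded that of the other subunits was not tested.

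**Figure D3:**
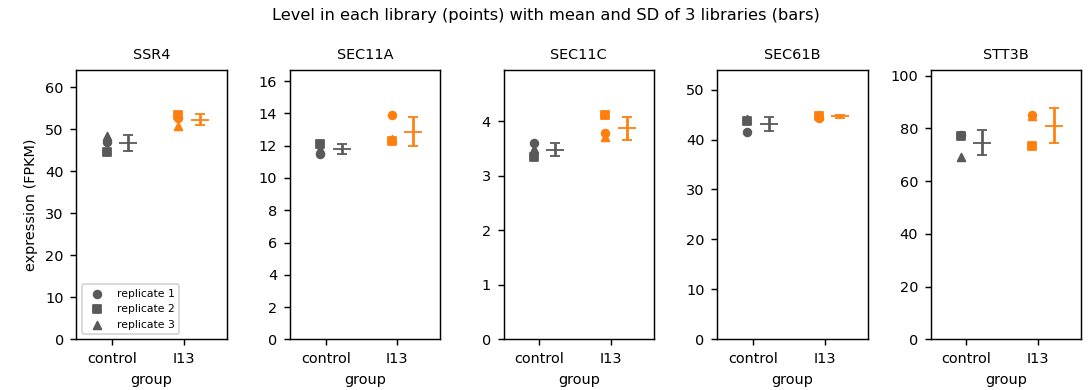
Expression in FPKM of SSR4, SEC11A, SEC11C, SEC61B and STT3B in each library (points, with the shape giving the replicate) and the mean and SD of the 3 libraries of each group (bars), each axis from 0. The groups do not overlap in the first 4 genes, and in STT3B the lowest library of each group is control replicate 3 and I13 replicate 2.

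OST was represented by 7 genes, of which 6 had a log2 fold change above 0 with a median of 0.044 (0.066 in the 4 libraries) and 0 passed the unadjusted test over all 6 libraries. The groups overlapped in the scaffold and accessory subunits, where RPN1 was at 106 ± 6.58 and 109 ± 4.22 FPKM, RPN2 at 145 ± 0.65 and 148 ± 2.86 FPKM, DDOST at 286 ± 14.2 and 293 ± 14.9 FPKM, and DAD1 at 113 ± 9.18 and 112 ± 7.38 FPKM in control and I13 cells. PINK1-AS, annotated on the same strand, covers 15.7% of the exon bases of DDOST. OST4, the smallest subunit, read 32, 30.2 and 33.4 FPKM in control and 35.6, 36.5 and 31 FPKM in I13 libraries. These overlapped through I13 replicate 3, and the log2 fold change was 0.11 (SE 0.075, limma p 0.19). With single libraries left out it ran from 0.064 without I13 replicate 2 (limma p 0.446) to 0.18 without I13 replicate 3 (limma p 0.0294), and it was 0.099 in the 4 libraries that did not stand apart.

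The catalytic OST subunits are STT3A, which works beside the channel as chains enter, and STT3B, which glycosylates sites that were passed over. STT3A was at 30.6 ± 1.79 FPKM in control and 31.6 ± 1.15 FPKM in I13 cells. STT3B (chromosome 3, 31532638 to 31637622, plus strand) read 77.6, 77.3 and 69.1 FPKM in control and 85.1, 73.3 and 84.9 FPKM in I13 libraries. In each group the library that stood apart was the low one, and the groups overlapped only through I13 replicate 2. Over all 6 libraries the log2 fold change was 0.12 (SE 0.077, 95% interval -0.063 to 0.30, limma p 0.167). Without control replicate 3 and I13 replicate 2 it was 0.13 with a p of 0.00903 by limma, and a term for these libraries gave a limma p of 0.00512 on 0.12. Between these 2 libraries alone it was 0.086. Adjusted over all genes, the limma p of the 4 libraries was 0.509, and voom on all 6 libraries gave a p of 0.103. The 2 libraries are the low ones of STT3B and were picked on a component whose genes include it. The smaller p-values without them, or with a term for them, are therefore no independent test. Adjusted p-values of the members over all genes ran from 0.875 to 1 with all 6 libraries.

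Where the machinery has alternative subunits, their shares overlapped between the groups. Of the summed FPKM of SEC61A1 and SEC61A2, the SEC61A2 share was 3.54 ± 0.298% in control and 3.81 ± 0.53% in I13 cells, a difference of 0.271 percentage points. The SEC11C share of the catalytic signal peptidase genes was 22.8 ± 1.03% and 23.1 ± 1.82%. STT3B made up 72.7%, 72% and 67.9% of the catalytic OST genes in the control libraries and 73.5%, 70.1% and 72.1% in the I13 libraries, with the lowest share of each group again in the library that stood apart. No test was run on these shares. SEC61A2 itself, a minor isoform of the channel pore, read 2.15, 2.68 and 2.57 FPKM in control and 2.6, 2.39 and 3.01 FPKM in I13 libraries (log2 fold change 0.11, SE 0.13).

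For many members the larger pattern lay between libraries and not between groups. Control replicate 3 and I13 replicate 2 lay both below the other 4 libraries for 11 members (35.5%), against 17.0% of all genes. They lay both above the other 4 for 8 members (25.8%), against 10.3%. These libraries were picked on a component of the genes whose mean reached 10 FPKM, which include all members but SRP19, SEC61A2 and SEC11C. The values of most members thus helped to choose the libraries, and all genes tested include many with lower levels. Whether the members exceeded genes of similar level in these shares was not tested. The 11 low members were SRP9, SRP54, SRP72, SEC61G, SEC62, SEC63, TRAM1, SPCS3, SSR1, SSR3 and STT3B, and the 8 high ones SRPRA, SRPRB, SEC61A1, SPCS1, SSR2, DDOST, RPN1 and DAD1. SEC61, signal peptidase, TRAP and OST had genes in both lists, while SRP and the channel partners had genes among the low members alone and the SRP receptor among the high ones alone. Base composition moved with it. The share of G and C bases in the longest coding transcript had a median of 40% (35.8% to 48.1%) in the low members, 51.2% (44.9% to 54.1%) in the high members and 46.5% in the 12 others. Over the 31 members, the G and C share correlated with the log2 difference of these 2 libraries from the other 4 at a Pearson r of 0.68 and a Spearman rho of 0.70, at 0.48 and 0.60 over the 11913 genes tested with a coding transcript, and at 0.79 and 0.80 over the 3913 of them whose mean reached 10 FPKM. Genes of 1 library share its preparation and depth, so these are descriptions without a test. SSR4 had the highest G and C share, 62.9%, and lay in neither list.

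**Figure D4:**
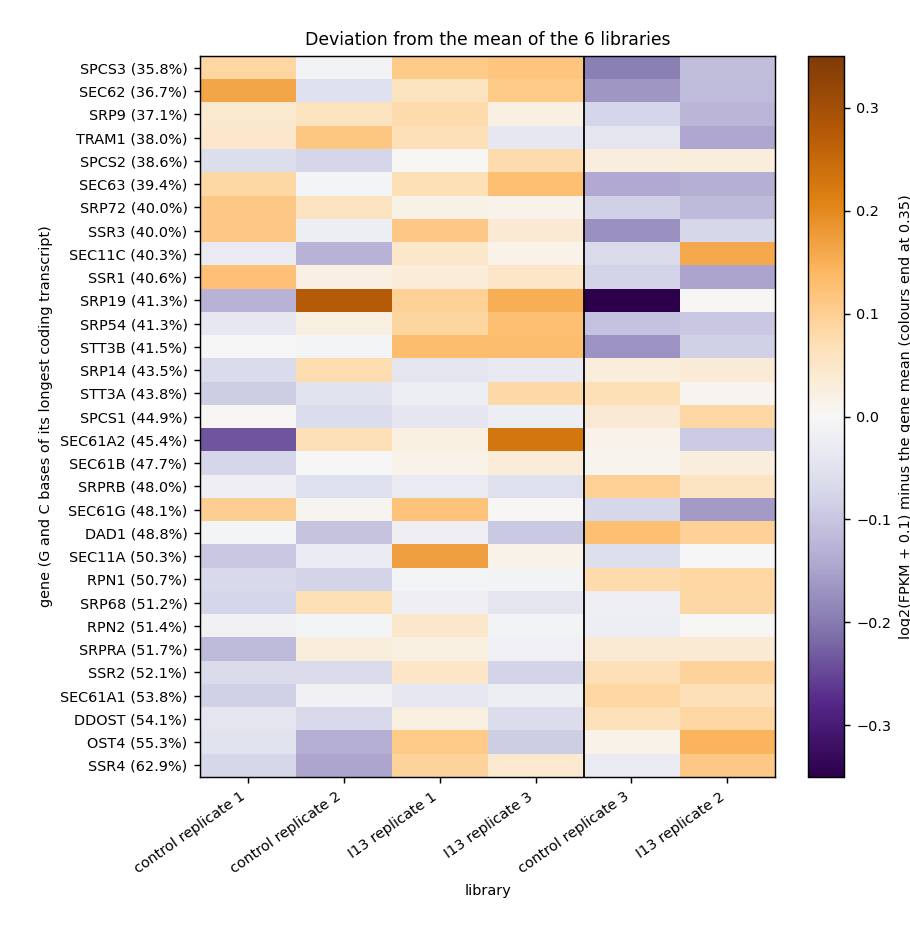
Deviation of log2(FPKM + 0.1) from the mean of the 6 libraries for each of the 31 genes (rows, from the lowest to the highest share of G and C bases) in each library (columns, with control replicate 3 and I13 replicate 2 right of the line). The right columns are mostly below the mean (purple) in the upper rows and mostly above it (orange) in the lower rows, in control and I13 alike.

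**Figure D5:**
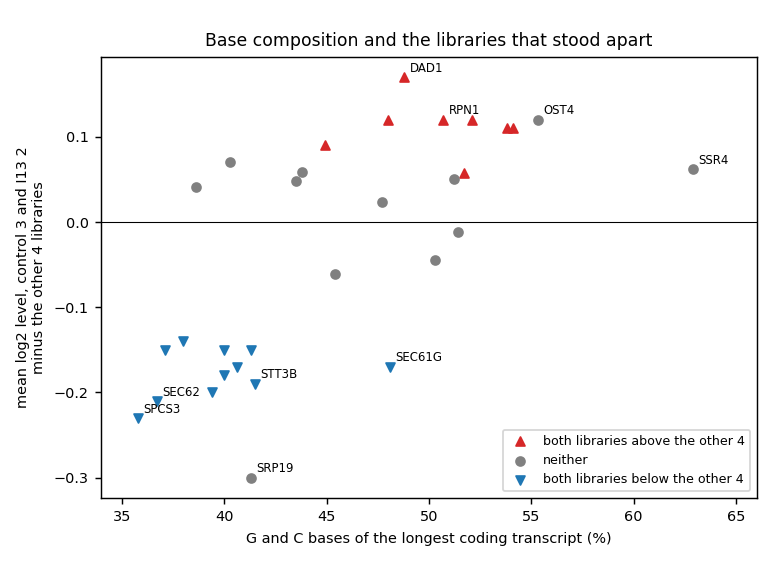
Share of G and C bases in the longest coding transcript (percent, horizontal axis) against the mean log2 level in control replicate 3 and I13 replicate 2 minus that in the other 4 libraries (vertical axis), 1 point a gene, 31 genes. The 11 genes with both libraries lowest (blue) lie between 35.8% and 48.1%, and the 8 with both highest (red) between 44.9% and 54.1%.

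Genes of this machinery are known targets of the unfolded protein response, so the RefSeq promoters (GRCh38.p14, 250 bases before to 50 after the start) were searched for its motifs on both strands. A promoter was given for 26 of the 31 members, all but SRPRA, TRAM1, SPCS1, RPN1 and STT3B. The core TGACGTGG of the UPR element, which ATF6 and XBP1 are known to bind, stood in 4 of the 26 (15.4%): SEC62, SRP19, SSR3 and SSR4. The share was 0.927% of all 27305 genes with a promoter and 1.16% of the 9997 tested genes with one. A gene counted when any of its starts held the motif, so genes with more starts had more chances. The ER stress element (CCAAT, 9 bases, CCACG) stood in 0 of the 26, against 0.0916% of all genes with a promoter. Its second form (ATTGG, 1 base, CCACG) stood in 0 of the 26, against 0.0696%. Of the further pathway genes described below, 60 had a promoter. The core stood in 2 of them (3.33%), the ER stress element in 4 (6.67%) and its second form in 1 (1.67%). The 4 stretches with the core in members are shown because they hold the motif beside SSR4, the member with the smallest p, and beside members whose groups overlapped. In each the motif lies on the other strand, so that its reverse complement is in capitals.

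SEC62, chr3:169966779-169966806, plus strand: ccctcctcgctCCACGTCAgagggaacc
SRP19, chr5:112861115-112861193, plus strand: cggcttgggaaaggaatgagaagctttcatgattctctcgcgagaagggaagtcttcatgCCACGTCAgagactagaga
SSR3, chr3:156554126-156554226, minus strand: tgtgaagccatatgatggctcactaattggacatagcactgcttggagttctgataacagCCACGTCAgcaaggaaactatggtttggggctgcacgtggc
SSR4, chrX:153794528-153794557, plus strand: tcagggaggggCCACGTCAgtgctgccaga

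The motif lies 17 to 10 bases before the RefSeq start of SEC62, 112 to 105 before that of SRP19, 41 to 34 before 1 start of SSR3 and 129 to 122 before 1 start of SSR4. In GENCODE 29 the stretches of SEC62, SSR3 and SSR4 lie inside the annotated gene, and that of SRP19 ends within its first bases. Of the 4 genes with the motif, SSR4 was 12% higher in I13 cells, while SEC62, SRP19 and SSR3 had overlapping groups. A match of letters is a description and not a site of binding.

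The neighbouring steps of the pathway held no gene past the unadjusted test over all 6 libraries. Of 71 further genes for glycan assembly and trimming, membrane insertion and ER folding, 69 were tested, 45 had a log2 fold change above 0 and 24 below, and 0 had an unadjusted limma p under 0.05, against 5.14% of all genes. Voom gave 2 of 68 (2.94%), ALG14 and EMC10, against 5.35% of all genes. Limma without control replicate 3 and I13 replicate 2 gave 4 of 69 (5.8%), EMC10, MAGT1, MOGS and NUS1, against 8.04% of all genes. ALG14, EMC6, EMC10 and NUS1 are named after their values were seen. The median log2 fold change was 0.032. UGGT2 fell under the expression minimum, and TUSC3 was not analysed here. The fold changes ran from -0.43 for EMC6 to 0.58 for ALG14, both genes with low levels. EMC6 was at 0.181 ± 0.198 FPKM in control and 0.136 ± 0.236 FPKM in I13 cells (limma p 0.637). ALG14 was at 0.098 ± 0.0501 and 0.192 ± 0.0385 FPKM (limma p 0.194), with a log2 fold change of 1.08 by voom. The gene with the smallest p in each list is given next. Among further OST subunits it was MAGT1, an oxidoreductase of the STT3B complex, at 18.4 ± 0.695 FPKM in control and 19.7 ± 1.78 FPKM in I13 cells (log2 fold change 0.10, limma p 0.229). In the assembly of the lipid-linked glycan it was the glucosyltransferase ALG8, at 15.3 ± 0.914 and 16.3 ± 0.225 FPKM (0.096, p 0.152 by limma), and in glycan trimming glucosidase I, MOGS, at 54.4 ± 6 and 58.7 ± 1.03 FPKM (0.12, p 0.178 by limma).

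The membrane insertion lists gave one gene that was lower without overlap. GET1, a receptor for tail-anchored proteins, read 4.37, 3.99 and 4.47 FPKM in control and 3.83, 3.53 and 3.91 FPKM in I13 libraries, a log2 fold change of -0.18 (SE 0.086, limma p 0.071), or -0.11 (limma p 0.266) in the 4 libraries. EMC7 of the ER membrane protein complex was at 12.7 ± 0.429 and 13.7 ± 0.586 FPKM (0.11, limma p 0.112) and NOMO1 of the multipass translocon at 21.5 ± 1.51 and 23.1 ± 0.746 FPKM (0.10, limma p 0.146). Among luminal chaperones the smallest p was that of the co-chaperone DNAJB11, at 16.8 ± 0.682 and 17.8 ± 0.104 FPKM (0.080, limma p 0.161), without overlap, with 0.11 in the 4 libraries (limma p 0.0732). Of the 69 genes, 3 lay wholly higher in I13 libraries (ALG14, ALG8 and DNAJB11) and 1 wholly lower (GET1), against 4.88% and 4.64% of all genes.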

How the data were processed

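The authors deposited 1 table of FPKM per gene and library for 3 control and 3 I13 libraries of Kasumi-1 cells, prepared with a stranded mRNA kit. The submitters' processing notes name Trimmomatic, HISAT2, Cufflinks, HTSeq and hg38, without roles, versions or annotation. The sources used here do not give the strand setting of the counting. The deposited FPKM values were used without further scaling. Symbols, exon lengths and coordinates came from GENCODE 29. With these lengths, 25772 of 27002 genes above 0 (95.4%) gave whole fragments in all libraries within 0.01, among them 28 members. The fragments of SRP19, SRP72 and STT3A came from the common step of their values. The control libraries held 16566742 to 17221345 fragments and the I13 libraries 15281052 to 16682550.

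A linear model of the 2 groups was fitted to log2(FPKM + 0.1) by limma 3.58.1 (R 4.3.3), two-sided, with a variance trend and no block, for the 18726 genes whose mean FPKM reached 0.1, and p-values were adjusted over all of them by the Benjamini-Hochberg method. The threshold, an adjusted p under 0.05 and a log2 fold change of at least 0.58 in size, was taken from the study's methods. Voom on recovered fragments (mean of at least 10), leaving out libraries, other scalings, filters, pseudocounts and variance models were alternatives. On data simulated for this comparison, limma called 133 of 200 genes changed by 2-fold and 23 unchanged genes among 17715 tested, and voom 176 and 5 among 13678. The changed genes were drawn from those with a mean of at least 10 fragments. Every gene had a dispersion of 0.01 and no simulated libraries stood apart, so these counts do not measure the power in the real libraries. Promoter sequences are from RefSeq. Every member was named, with the gene of smallest p in each pathway list and the marker genes. The members and lists were chosen with earlier results of these data known.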

Additional observations from a re-analysis of the deposited data

How the results depend on the processing

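No member passed the adjusted threshold, and none was lower at an unadjusted p under 0.05, in any of the 18 alternative fits. The count of members higher at that p, 1 in the fit described above, was 0 after median scaling and 0 without a variance trend, 2 with a term for control replicate 3 and I13 replicate 2 and 2 in the other 4 libraries, and ran from 0 to 2 when single libraries were left out. The pathway genes at that p numbered 1 without a trend, 2 with the term, 4 in the 4 libraries, 2 by voom and 0 to 4 with single libraries left out. Over all genes the count of 963 was 582 at a minimum mean of 1 FPKM and 1513 in the 4 libraries, and 764 to 1233 with single libraries left out. The cause of these shifts was not tested. Of 259 comparison values under alternatives, 243 moved by less than the spread between libraries or, for counts, by at most 1.5 times, which does not keep small values from changing sign. The differences of the paralog shares ran from 0.0059 to 0.54 percentage points for SEC61A2, from -0.57 to 1.24 for SEC11C and from -0.40 to 1.96 for STT3B with single libraries left out. The medians of signal peptidase and OST were 0.11 and 0.066 in the 4 libraries, and that of the channel partners ran from -0.039 to 0.10 with single libraries left out. The median log2 fold change of the members ran from 0.02 to 0.047 with single libraries left out. In 15 members, none of them past the unadjusted test, the sign changed in at least 1 fit, and among the scalings this concerned SEC61A1 under quantile normalization. The labels do not say whether the replicate numbers pair the libraries. Deviations of same-numbered libraries correlated at 0.32, -0.38 and -0.30, and those of control replicate 3 and I13 replicate 2 at 0.51. What sets those 2 libraries apart enters these values, so they cannot show whether same-numbered libraries were handled together. With the replicate block SSR4 remained the 1 member (limma p 0.0425), and 862 genes of all passed the unadjusted p. The comparison within control replicate 3 and I13 replicate 2 was added after seeing the data, and there the median of the members was 0.0086.

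With 3 libraries a group, the interval of a member allowed differences of the size shown by its bounds, and SRP19, with at most 118 fragments a library, was the least precise.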

Other observations

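The level of SRP72, above that of its partner SRP68 by both lengths used, was looked at beside its neighbours on chromosome 4, which were chosen after its value was seen. Of 16420 protein-coding genes in the table, 117 were at or above SRP72 in mean FPKM. KIT, the stem cell factor receptor, starts 1.81 Mb before SRP72 and was at 225 FPKM in control and 216 FPKM in I13 cells. PAICS, a purine synthesis enzyme and the nearest gene before SRP72, was at 148 and 152 FPKM, and POLR2B, an RNA polymerase II subunit further along, at 92.3 and 93.7 FPKM. Genes between and beyond them ran from NOA1 at 75.2 FPKM and TMEM165 at 60.5 FPKM, through REST at 25.1 FPKM and EXOC1 at 23.4 FPKM, to HOPX at 0.0956 FPKM and KDR at 0.0311 FPKM in control cells. The copy number of the region was not measured here.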
